A study of Rattus norvegicus with 6 samples.

Results

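The 9 genes described here belong to the transforming growth factor beta (TGF-beta) system, out of 32883 genes listed in each matrix. They were chosen by name: the ligands Tgfb1, Tgfb2 and Tgfb3, the receptors Tgfbr1 and Tgfbr2, the latency protein Ltbp1, and the target genes Tgfbi, Ctgf (now also named Ccn2) and Postn. All 9 were found in every library, and each symbol stood on 1 Ensembl gene. Single-cell RNA-seq had been made from islet preparations of 6 male Wistar rats, obtained by collagenase P digestion of the pancreas and a density gradient. The young group held 2 rats of 2 months on the normal diet, the old group 2 rats of 20 months on the normal diet, and the HFHF-old group 2 rats of 20 months that had been given a high-fat, high-fructose diet for 18 months. Old against young was thus a comparison of age on 1 diet, and HFHF-old against old a comparison of diet at 1 age. The paper places the killing of its baseline rats before the feeding period, and the sample labels give no date of cell preparation. Age therefore cannot be told apart from the date of preparation. Both comparisons used the same 2 old rats, so they are not independent of each other.

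The libraries held 7617 to 17724 barcodes and 77387928 to 166875258 unique molecular identifiers (UMIs, each a count of 1 captured RNA molecule). The libraries of different rats shared 20 to 69 barcode sequences per pair. Of 78024 barcodes, 75201 passed the cell filters, and their clusters were named from marker genes, with the 9 genes and 60 other genes of the pathway held out of the clustering. The 6 cell classes held 12597 fibroblast, 916 mural (smooth muscle and pericyte), 1965 endothelial, 14802 macrophage, 15885 T and natural killer (T/NK) and 15701 epithelial (acinar, endocrine and ductal) cells. The second HFHF-old library stood apart from the others: it held 9524 T/NK cells but 13 macrophages, 93 epithelial cells and 2 mural cells. Mural values were therefore taken from 5 rats, of which the first old rat gave 26 mural cells and the first HFHF-old rat 19. Levels are given as UMIs of a gene per 1000000 UMIs of the class in a rat (CPM). The markers of each class were highest in that class, but RNA of other cells was measured in all of them: in fibroblasts the summed level of 11 macrophage markers was 32.3 to 1758 CPM, and in mural cells the level of Ins1, the insulin gene of beta cells, was 728 to 79955 CPM.

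TGF-beta ligands are secreted in a latent form, bound to their own propeptide and to latent TGF-beta binding proteins such as LTBP1, which tether them to the extracellular matrix. Once released, a ligand binds the type II receptor TGFBR2, which recruits and phosphorylates the type I receptor TGFBR1. The signal is carried to the nucleus by SMAD proteins and raises the transcription of matrix genes. In the pancreas the pathway is known for its part in fibrosis and in the activation of stellate cells, and in immune tissue for restraining T cells.

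The first question was which cells held each transcript. With rat as a block in 1 edgeR fit of the 35 sums of class and rat, 6 of the 9 genes had a class with a higher level than the class next in order, at an adjusted p under 0.05 and at least 1.5 fold. The share of all genes with such a class is not given here, so this count does not set the 9 genes apart. The backgrounds below are for single pairs of classes. For Tgfb1 (ENSRNOG00000020652), the ligand best known from immune cells and platelets, the macrophage level was 272 ± 38.9 CPM (SD, n = 6) and the T/NK level 205 ± 22.6. Macrophages and T/NK cells did not differ beyond the spread (log2 difference 0.48 ± 0.26 SE, adjusted p = 0.109; 54.3% of all genes differed between these classes). The T/NK level exceeded that of endothelial cells, at 129 ± 12.8 CPM, by 0.90 ± 0.26 on the log2 scale (adjusted p = 0.00376, background 55.1%). Fibroblasts held 27.9 to 51.9 CPM of Tgfb1. The immune classes thus stood at the top of the order and fibroblasts near its end, and within each class other than epithelial the rats differed by at most 2.21-fold.

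Tgfb2 (ENSRNOG00000002418), the isoform linked to mesenchyme and epithelium, showed another distribution. Its level was 192 ± 58.0 CPM in endothelial cells (lowest 117, median 174, highest 272) and 169 ± 51.7 in fibroblasts (lowest 121, median 154, highest 264), and these did not differ beyond their spread (log2 difference -0.08 ± 0.43 SE on the edgeR scale, adjusted p = 0.921, background 34.6%). Mural cells held 139 ± 135 CPM (n = 5), not different from fibroblasts beyond the spread (adjusted p = 0.410, background 32.9%), and stood 2.17 ± 0.52 above T/NK cells on the log2 scale (adjusted p = 0.000579, background 58.8%). The mural mean was 83.7 CPM without the first old rat. Macrophages, T/NK and epithelial cells had means of 13.9 to 26.8 CPM, and the lowest of these, in macrophages, was 8.38 CPM without the first HFHF-old rat. Within the epithelial class the level was highest in ductal cells, at a mean of 61.7 CPM against 12.4 in endocrine and 6.83 in acinar cells (4.26 without the second HFHF-old rat), while endocrine cells, the most deeply counted, held 975 of its UMIs and ductal cells 336. Tgfb3 (ENSRNOG00000009867) was a gene of fibroblasts and mural cells: 69.0 ± 21.0 CPM in fibroblasts and 42.9 ± 28.5 in mural cells, a log2 difference of 1.14 ± 0.38 (adjusted p = 0.0191). Without the first or the second young rat that call was lost (0.97 and 1.04, adjusted p = 0.0921 and 0.110), as it was without rat as a block (0.91, adjusted p = 0.148). Mural cells stood 3.07 ± 0.49 above endothelial cells (adjusted p = 8.29e-06, background 29.7%), and every other class had a mean of at most 4.03 CPM.

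Ltbp1 (ENSRNOG00000033090) encodes the protein that anchors the latent ligands in the matrix. It was highest in fibroblasts, at 995 ± 288 CPM (lowest 616, median 1009, highest 1313), followed by 244 ± 71.7 in endothelial and 190 ± 50.1 in mural cells. Fibroblasts exceeded endothelial cells by 2.28 ± 0.31 on the log2 scale (adjusted p = 4.08e-07), while endothelial and mural cells did not differ beyond their spread (0.29 ± 0.32, adjusted p = 0.559). The ranges of fibroblast and endothelial values over the rats did not overlap. In macrophages and T/NK cells it lay between 0 and 19.3 CPM.

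**Figure D1:**
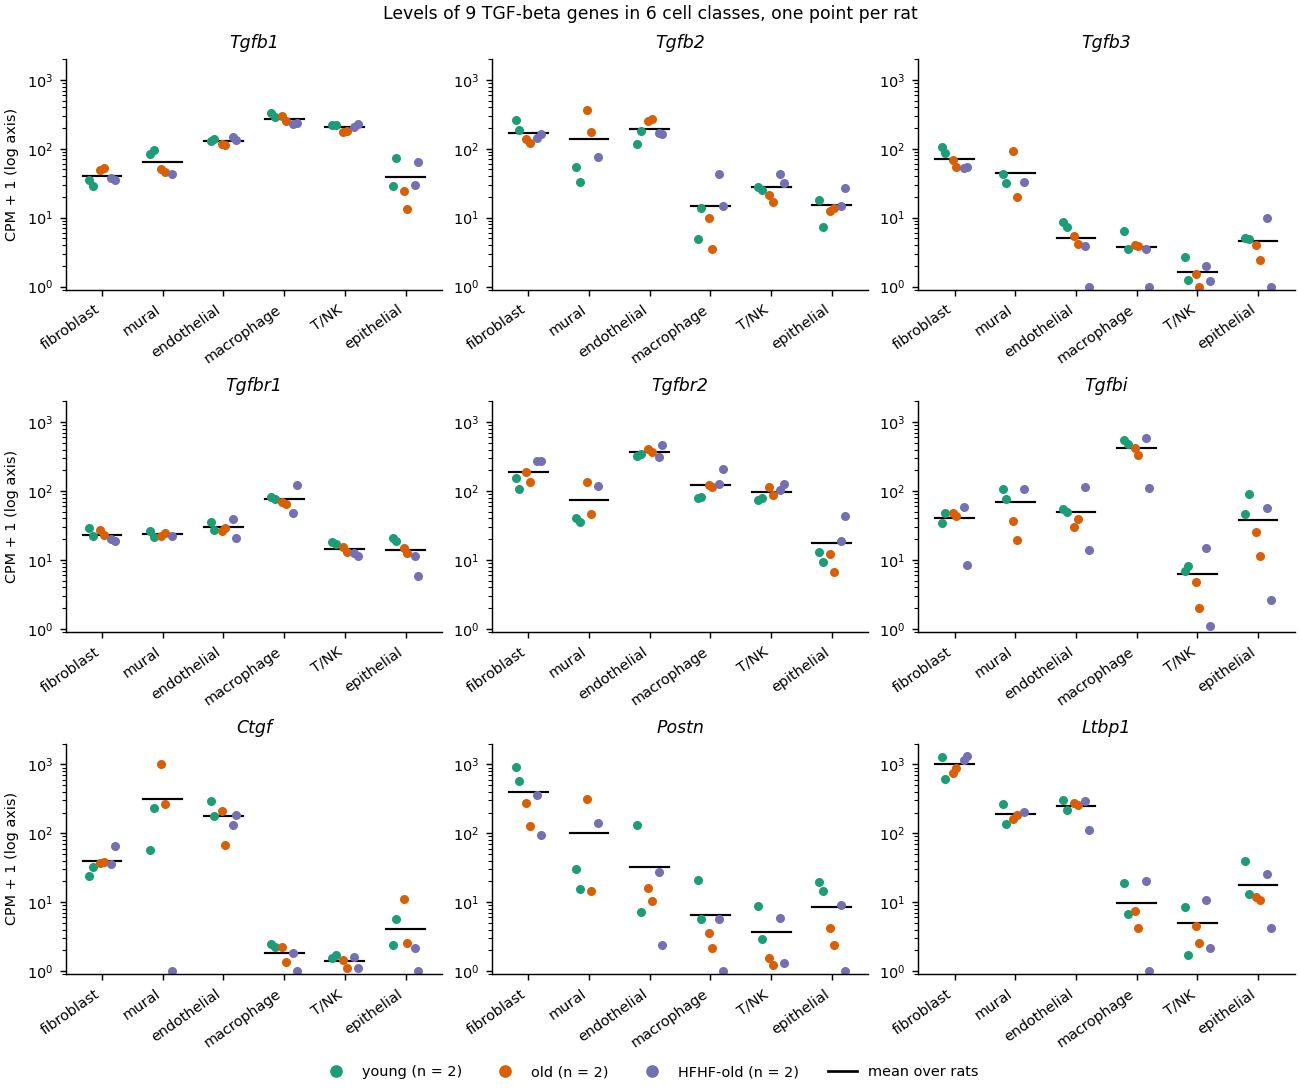
Levels of the 9 genes in 6 cell classes on a log axis of CPM plus 1, with 1 point per rat coloured by group and a line at the mean over rats (5 rats in the mural class, 6 elsewhere). Tgfb1 stands highest in macrophages and T/NK cells, Tgfb3, Postn and Ltbp1 in fibroblasts, Tgfbr2 in endothelial cells, and Tgfbr1 and Tgfbi in macrophages.

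The receptors were present in all classes, with different peaks. Tgfbr1 (ENSRNOG00000007036), the type I receptor kinase, was highest in macrophages, at 76.0 ± 25.7 CPM (lowest 46.2, median 71.1, highest 123), against 28.6 ± 6.5 in endothelial cells. The log2 difference was 1.49 ± 0.17 (adjusted p = 1.19e-08, background 43.6%). Endothelial, mural and fibroblast levels of Tgfbr1 followed each other without a difference beyond their spread (adjusted p = 0.523 and 0.827). Tgfbr2 (ENSRNOG00000013265), the type II receptor that binds the ligand, was highest in endothelial cells, at 368 ± 56.9 CPM (lowest 306, median 354, highest 458). Fibroblasts followed at 187 ± 69.9 CPM, lower by a log2 difference of 0.87 ± 0.22 (adjusted p = 0.00172), and macrophages at 120 ± 46.1 CPM, below fibroblasts by 0.61 ± 0.22 (adjusted p = 0.0210, background 46.6%). Without rat as a block the difference between endothelial cells and fibroblasts was 0.76 and was not called (adjusted p = 0.0672). Epithelial cells had the lowest mean of both receptors, at 13.1 CPM for Tgfbr1 and 16.3 CPM for Tgfbr2, although on the edgeR scale the epithelial level of Tgfbr1 was above that of T/NK cells (-0.85 ± 0.15 for T/NK minus epithelial, adjusted p = 1.38e-05). Ins1 alone measured 29563 to 171613 CPM in the epithelial sums, and the epithelial place in the order depended on the scaling.

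The 3 target genes peaked in 3 different classes. Tgfbi (ENSRNOG00000012216) encodes a secreted matrix protein that binds integrins, and was highest in macrophages, at 413 ± 175 CPM (lowest 109, median 448, highest 596), with mural cells next at 68.3 ± 40.3 CPM (log2 difference 3.06 ± 0.41, adjusted p = 3.87e-07, background 45.5%). Mural, endothelial, fibroblast and epithelial levels did not differ beyond their spread between neighbours in the order (adjusted p = 0.558, 0.912 and 0.268). Ctgf (ENSRNOG00000015036), a matricellular protein also driven by YAP and TEAD factors, was 311 ± 403 CPM in mural cells and 176 ± 76.6 in endothelial cells, with no difference beyond the spread (adjusted p = 0.461). The first old rat, at 1003 CPM from 26 cells, carried the mural mean, which was 138 CPM without it. The log2 difference was -0.00 when the first or the second old rat was left out alone. It was 1.26 and 0.54 without the first and the second young rat, and 0.85 and 0.55 without the first and the second HFHF-old rat. Endothelial cells exceeded fibroblasts, at 38.0 ± 14.1 CPM, by 1.97 ± 0.47 (adjusted p = 0.000966), and immune cells held at most 1.51 CPM. Postn (ENSRNOG00000012660), the matrix protein periostin, was highest in fibroblasts, at 390 ± 311 CPM (lowest 92.8, median 318, highest 917), above mural cells by 2.74 ± 0.66 (adjusted p = 0.00148). The Postn difference was 0.97 with clustering at resolution 2 (adjusted p = 0.313) and 1.07 when the barcodes with the most genes were kept (adjusted p = 0.310), so its call rested on how the cells were filtered and clustered. The spread over rats was 9.87-fold for Postn in fibroblasts, and 2.13-fold for Ltbp1 in the same cells.

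The stretches of 250 bases before the transcription start of the 3 target genes are shown because the TGF-beta signal reaches such genes through their promoters, and because their levels peaked in different classes. They are given 5′ to 3′ on the strand of the gene, from RefSeq on GRCr8, a later build than the Rnor_6.0 of the matrices, and 9 of the 9 genes had an entry. The windows are chr17:7990114-7990363 (minus strand) for Tgfbi, chr1:22624615-22624864 (minus strand) for Ctgf and chr2:140677811-140678060 (plus strand) for Postn. Capitals mark matches on either strand to CAGAC (the SMAD box), to GGAATG (the TEAD motif), to TATAAA (the TATA box) and to GGGCGG (the GC box), of which none overlapped.
Tgfbi: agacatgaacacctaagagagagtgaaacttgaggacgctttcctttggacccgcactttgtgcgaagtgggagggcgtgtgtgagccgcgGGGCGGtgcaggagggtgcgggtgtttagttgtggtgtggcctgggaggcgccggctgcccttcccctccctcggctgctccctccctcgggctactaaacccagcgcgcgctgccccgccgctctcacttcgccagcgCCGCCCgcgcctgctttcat
Ctgf: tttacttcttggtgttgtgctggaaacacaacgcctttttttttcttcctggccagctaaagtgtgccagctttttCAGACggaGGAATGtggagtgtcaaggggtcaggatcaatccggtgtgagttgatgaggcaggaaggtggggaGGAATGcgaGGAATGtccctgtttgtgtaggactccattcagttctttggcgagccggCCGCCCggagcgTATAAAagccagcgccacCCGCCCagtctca
Postn: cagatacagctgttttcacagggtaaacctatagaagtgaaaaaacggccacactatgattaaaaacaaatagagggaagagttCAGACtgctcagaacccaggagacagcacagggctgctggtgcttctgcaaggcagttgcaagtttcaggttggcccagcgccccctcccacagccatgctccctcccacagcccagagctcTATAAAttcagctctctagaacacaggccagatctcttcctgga
Ctgf and Postn each held 1 CAGAC, at 174 and 166 bases before the start, and a TATAAA at 31 and 44 bases. Ctgf also held GGAATG 3 times, at 166, 101 and 92 bases before the start, and 2 GC boxes. Tgfbi held 2 GC boxes, at 159 and 20 bases, and none of the other motifs. Of the other members, Ltbp1 had 1 CAGAC at 99 bases. Over 33469 rat promoters of the same length, CAGAC was found in 42.9%, TATAAA in 12.9%, GGGCGG in 30.5% and GGAATG in 12.1%, and 27 promoters (0.0807%) held GGAATG 3 or more times. These matches are letters in a window and do not show that a factor binds there.

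The genes whose log2(CPM + 1) followed each member most closely over the 35 sums are given as a description, since the sums share libraries, depth and the classes themselves. Ltbp1 had the closest, Lama4 (a laminin chain, Pearson r = 0.991), Ackr3 (0.980) and Nid1 (nidogen, 0.975). Postn was followed by Col5a3 (a collagen V chain, 0.952), Lama2 (0.952) and Agtr1a (0.949), and Tgfb3 by Abcc9 (0.962), Tcf21 (0.961) and Efemp2 (0.957). For Tgfbi the closest were Fcmr (0.978), Grn (0.977) and Cd14 (a monocyte and macrophage co-receptor, 0.960). Tgfb1 was followed by Sept9 (0.947), Dgkz (0.944) and Lcp1 (0.931), Tgfbr2 by Rftn1 (0.950), Tmod3 (0.950) and Cflar (0.934), and Ctgf by Nkx2-3 (0.946), Colgalt2 (0.902) and Fam13c (0.893). For Tgfb2 and Tgfbr1 the highest values were 0.885 (Fam188b) and 0.934 (Cltc).

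Postn outside fibroblasts was then set beside Col3a1, a collagen gene of fibroblasts that serves as a reference for fibroblast RNA in other cells. Per 1000 Col3a1 UMIs, Postn gave a median of 77.9 UMIs in fibroblasts (39.5 to 88.6 over 6 rats), 78.2 in macrophages (48.8 to 137 over 5 rats), 80.9 in endothelial cells (15.3 to 135) and 94.9 in T/NK cells (35 to 248). Postn in macrophages, at 0 to 19.7 CPM, thus stood to Col3a1 in about the ratio seen in fibroblasts. The part of free or attached fibroblast RNA in it was not tested. In mural cells the ratio was 41.5 and 31.3 in the young rats and 1073, 129 and 542 in the first old, the second old and the first HFHF-old rat. The first old and the first HFHF-old rat thus lay far above the fibroblast ratio, from 44 and 13 Postn UMIs, and the second old rat, with 13 Postn UMIs, lay within the range of the macrophages. Dcn per 1000 Col3a1 UMIs was 537 in mural cells of the first old rat, against 3728 in its fibroblasts. It was 949, 619, 5465 and 792 against 882, 747, 6652 and 1139 in the young, second old and first HFHF-old rats. The source of the mural Col3a1 was not tested. Ltbp1 had a median of 205 UMIs per 1000 Col3a1 UMIs in fibroblasts (42.6 to 1186 over 6 rats) and 203 in macrophages (71.5 to 373 over 5 rats). The median was 1506 in endothelial cells (223 to 5267) and 561 in mural cells (293 to 1723). These ranges overlapped. Within each rat the endothelial ratio, and the mural ratio where measured, stood above the fibroblast ratio. The macrophage ratios lay on both sides of it.

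**Figure D2:**
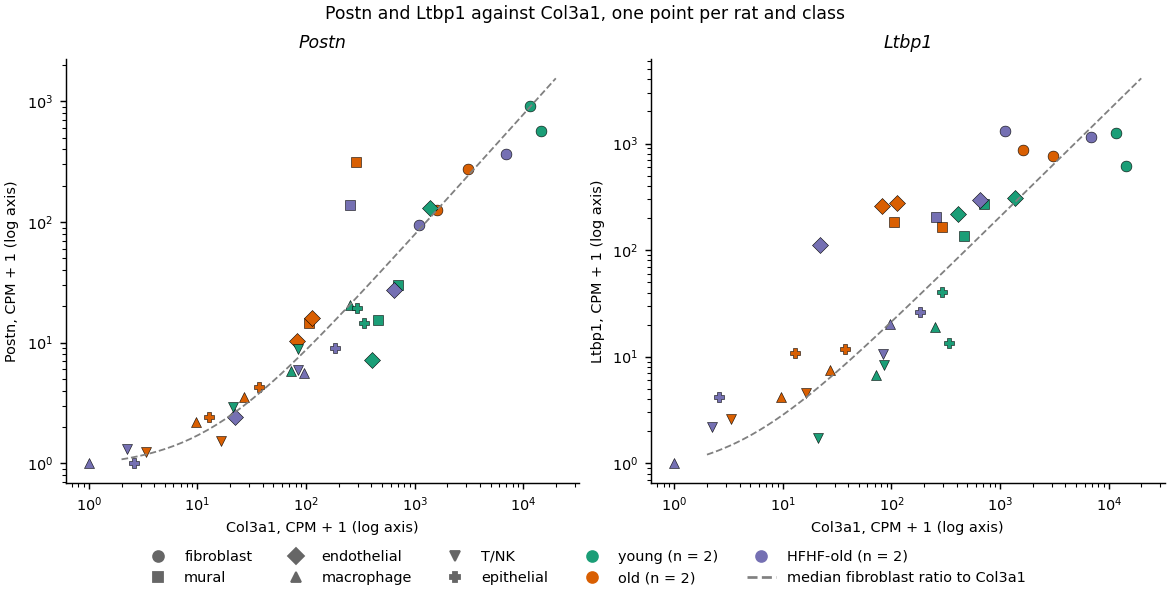
Postn (left) and Ltbp1 (right) against Col3a1, all as CPM plus 1 on log axes, with 1 point per rat and class (shape) coloured by group; the dashed line is the median fibroblast ratio, 77.9 Postn or 205 Ltbp1 UMIs per 1000 Col3a1 UMIs. Immune cells lie near the fibroblast line in the Postn panel, although the ratio was 248 in T/NK cells of the second HFHF-old rat. Mural cells of the first old and the first HFHF-old rat lie above the line, as do the endothelial cells of all 6 rats in the Ltbp1 panel.

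The second question was whether age changed the genes. Of the 51 gene and class pairs that passed the low-count filter, of 54 in all (Tgfb3 in endothelial and T/NK cells and Ctgf in T/NK cells did not), edgeR called 0 between old and young rats. Over all genes tested, the calls were 0.0214% in fibroblasts, 0.107% in macrophages, 0.0492% in T/NK cells and 0% in mural, endothelial and epithelial cells. At an unadjusted p under 0.05, 14 of the 51 pairs stood out (7 higher, 7 lower in old rats), against 5.84% of all gene and class pairs. DESeq2 called 1 of the 51, against 0.624% of all pairs. The median log2 fold change of the members over the 6 classes was -0.22, and in fibroblasts -0.07, where the median of all genes was -0.00. With 2 rats against 2, a permutation test of a single gene has 6 splits and cannot give a two-sided p below 0.333, so none was run.

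In fibroblasts 5 of the 9 genes had group values that did not overlap between old and young rats, against 38% of all genes tested. Tgfb2 measured 264 and 186 CPM in the young rats and 136 and 121 in the old rats, a log2 fold change of -0.83 ± 0.25 SE (unadjusted p = 0.0140, adjusted p = 0.593). Tgfb3 measured 103 and 84.4 CPM in young and 68.3 and 53.2 in old rats (-0.65 ± 0.22, adjusted p = 0.647). Both ligands were lower in each old rat than in each young rat, without passing the test. Postn measured 917 and 572 CPM in young and 274 and 125 in old rats, the widest gap among the 9 genes in these cells (-1.93 ± 0.70, adjusted p = 0.674). Col3a1 was likewise higher in each young rat, with 11646 and 14470 CPM in young and 3093 and 1622 in old rats, whereas Dcn, a proteoglycan of fibroblasts, lay between 10268 and 11532 in all 4.

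Tgfb1 was the member that was higher in old fibroblasts with an unadjusted p under 0.05: 34.5 and 27.9 CPM in young and 48.8 and 51.9 in old rats (0.67 ± 0.22, adjusted p = 0.627). C1qa, a macrophage gene, moved with it in the same fibroblast sums, at 192 and 124 CPM in young and 311 and 366 in old rats. The sum of the 12 macrophage markers, of which 11 were detected and Marco was at 0, was 880 and 568 CPM in young and 1374 and 1339 in old rats, and the part of macrophage RNA in the Tgfb1 difference was not tested. Ctgf measured 23.3 and 31.8 CPM in young and 36.5 and 36.7 in old fibroblasts (0.41 ± 0.31, adjusted p = 0.932). Tgfbr1, Tgfbr2, Tgfbi and Ltbp1 overlapped between the groups, with log2 fold changes of -0.22 to 0.31.

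**Figure D3:**
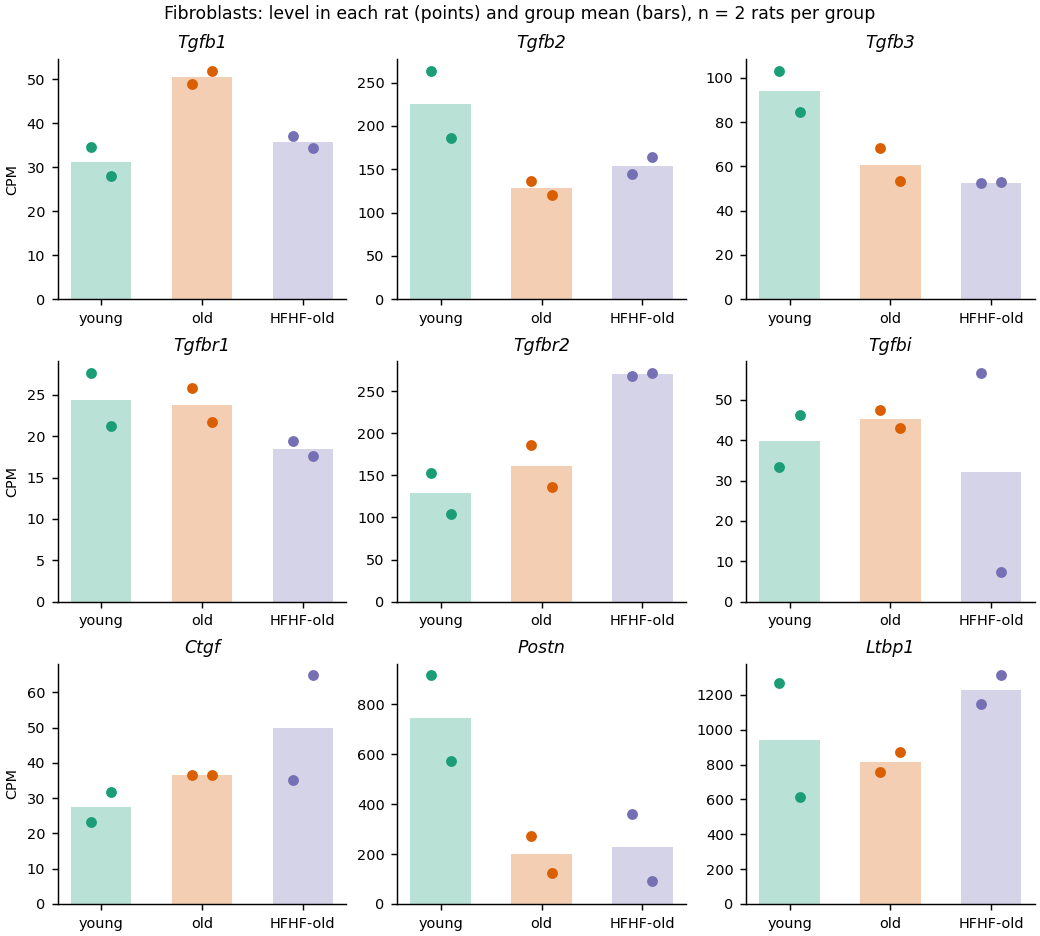
Levels of the 9 genes in fibroblasts in CPM, with 1 point per rat and a bar from 0 to the mean of the 2 rats of each group. Tgfb2, Tgfb3 and Postn are lower in both old rats than in both young rats, and Tgfbr2 is 268 and 272 CPM in the HFHF-old rats against 105 to 187 in the other 4.

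Mural cells showed larger values in the opposite direction for Tgfb2 and Postn. Tgfb2 measured 53.4 and 32.3 CPM in young and 360 and 175 in old mural cells, a log2 fold change of 2.57 ± 0.47 with the smallest p among the 51 pairs (unadjusted p = 0.000392, adjusted p = 0.489). DESeq2 called it, at 2.63. Postn measured 29.2 and 14.5 CPM in young and 311 and 13.5 in old mural cells (2.50 ± 1.01, adjusted p = 1.00), so that the difference lay in the first old rat with its 26 mural cells, and without that rat the log2 fold change was -0.46. Ctgf measured 55.2 and 232 CPM in young and 1003 and 265 in old rats (1.93 ± 0.79), and Tgfbr2 39.0 and 34.3 in young and 134 and 45.8 in old rats (1.09 ± 0.48), each with an adjusted p of 1.00. The first old rat gave the highest value of all 4 genes. For the second old rat, an unnamed cluster outside the mural class held 3120 Postn UMIs, beside 13 in its mural sum. Tgfbi was lower in old mural cells, at 107 and 74.5 CPM in young and 35.3 and 18.8 in old rats (-1.87 ± 0.46, adjusted p = 0.725), and the sum of the macrophage markers was 2852 and 1774 CPM in young and 1681 and 1399 in old rats. Its part in the Tgfbi difference was not tested.

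The difference between the mural and the fibroblast response to age was tested as an interaction of class and group with rat as a block, a test added after these values had been seen. For Tgfb2 the mural change exceeded the fibroblast change by 3.29 ± 0.39 on the log2 scale (adjusted p = 0.00231), and for Postn by 3.72 ± 0.69 (adjusted p = 0.0361). These 2 genes were called among 13246 genes, of which 0.151% were called. The same test in the other classes, and with diet, called no member. For Tgfb2 with age it gave 1.62 ± 0.41 in endothelial cells (adjusted p = 0.604) and 1.44 ± 0.39 in epithelial cells (adjusted p = 0.679). In macrophages and T/NK cells it gave 0.46 ± 0.72 and 0.43 ± 0.27. A change above that of fibroblasts was thus not seen in mural cells alone. For Tgfb2 the difference was 3.18 to 3.54 when each rat of these groups was left out in turn. Each such fit left 1 rat in the young or the old group, assumed to vary like the others. For Postn it was 2.15 without the first old rat (adjusted p = 0.0713) and up to 5.03 without the second. The mural sums of the older rats also carried endocrine RNA, with Ins1 at 79955 CPM in the second old rat, and its part was not tested. For Tgfbi the mural interaction was -2.17 ± 0.46 (adjusted p = 0.0611), for Tgfb1 -1.59 ± 0.39 (adjusted p = 0.121) and for Ctgf 1.70 ± 0.54 (adjusted p = 0.273).

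In T/NK cells 5 of the 7 members tested (Tgfb1, Tgfb2, Tgfbr1, Tgfbi and Postn) were lower in both old rats than in both young rats, against 24.6% of all genes. The same held for 6 of 9 in epithelial cells (Tgfb1, Tgfb3, Tgfbr1, Tgfbi, Postn and Ltbp1), against 30% of all genes, and for 3 of 9 in macrophages (Tgfbr1, Tgfbi and Postn), against 26.8%, none past the test. In macrophages Postn measured 19.7 and 4.8 CPM in young and 2.5 and 1.2 in old rats (-2.66 ± 0.69, adjusted p = 0.227), in T/NK cells 7.9 and 1.9 against 0.5 and 0.2 (-3.55 ± 1.43, adjusted p = 0.602), and in epithelial cells 18.3 and 13.5 against 3.3 and 1.4 (-2.46 ± 0.77, adjusted p = 1.00). Col3a1 in the same macrophage sums measured 252 and 71.8 CPM against 26.0 and 8.6, the same order of rats. It moved with Postn in the others too, at 84.1 and 20.1 against 15.4 and 2.33 CPM in T/NK cells and at 293 and 337 against 36.1 and 11.9 CPM in epithelial cells, and the part of fibroblast RNA in these differences was not tested. The epithelial sums held unlike cells, since 2592 of the 6130 epithelial cells of the second young rat were in an endocrine cluster with 2 to 15 cells in the first young and the old rats. Tgfbr2 was higher in old rats by an unadjusted p under 0.05 in macrophages (76.9 and 82.0 CPM in young, 120 and 112 in old rats, 0.60 ± 0.25, adjusted p = 0.516) and in T/NK cells (74.1 and 77.2 against 112 and 85.8, 0.49 ± 0.20, adjusted p = 0.615). The macrophage mix differed, since clusters 14 and 18 held 29.8% and 12.6% of the macrophages of the first old rat against 4.20% and 6.39%, and 0.919% and 0.447%, in the young rats (4.13% and 0.444% in the second old rat), and Tgfbr2 had a mean of 163 CPM in cluster 14 against 87.8 in cluster 1. Within cluster 1 it measured 64.8 and 68.1 CPM in young and 106 and 92.3 in old rats, within cluster 4 83.6 and 79.0 against 108 and 120, and within cluster 14 165 and 176 against 143 and 194, so that the groups overlapped in cluster 14 alone of these 3. The mix of T/NK cells differed too: a T cell cluster made up 8.71% and 9.52% of the class in young and 39.9% in each of the old rats. That cluster held Tgfbr2 at a mean of 141 CPM against 83.3 in natural killer cells. Within natural killer cells Tgfbr2 measured 67.7 and 69.2 CPM in young and 88.2 and 56.0 in old rats, and within T cells 128 and 131 against 149 and 131, so the groups overlapped in natural killer cells and were close in T cells. Tgfb2 had a mean of 3.10 CPM in T cells and 32.7 in natural killer cells. In the class it was 27.2 and 24.0 CPM in young and 20.0 and 15.9 in old rats. Within natural killer cells it was 29.9 and 27.0 against 32.7 and 25.2, where the groups overlapped. The part of the cell mix in these macrophage and T/NK differences was not tested. Tgfb1 was near level in the classes where it was highest, with log2 fold changes of -0.11 ± 0.27 in macrophages and -0.19 ± 0.20 in T/NK cells. No member reached an unadjusted p of 0.05 in endothelial cells, where Tgfb2 measured 117 and 182 CPM in young and 250 and 272 in old rats (0.78 ± 0.33).

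**Figure D4:**
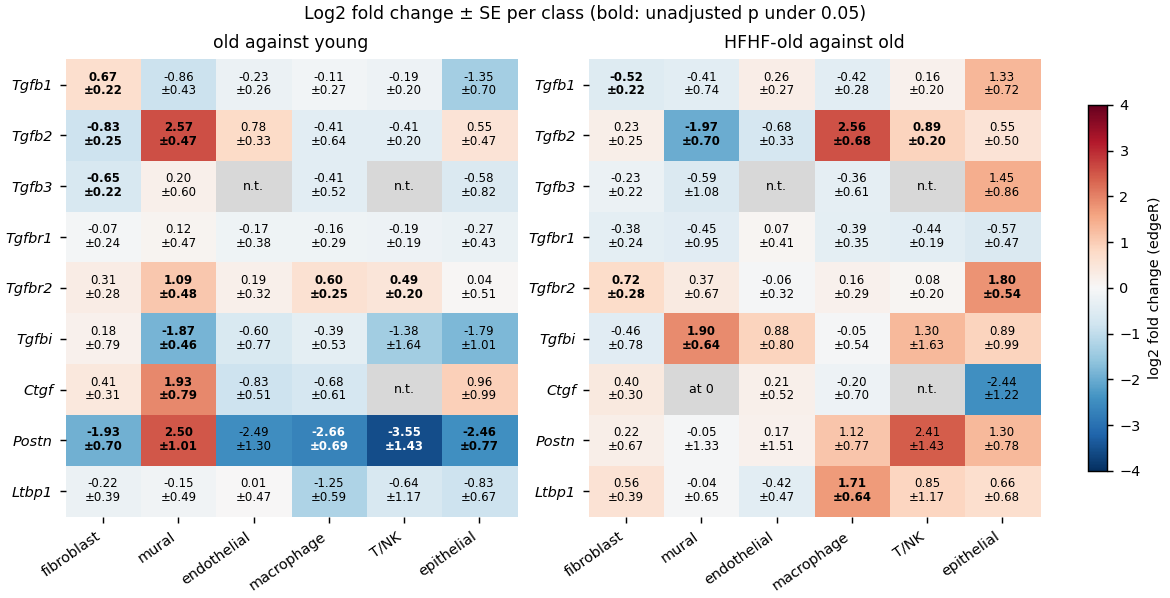
Log2 fold change ± SE from edgeR for the 9 genes (rows) in the 6 classes (columns), old against young on the left and HFHF-old against old on the right, with red for higher and blue for lower in the first-named group and bold for an unadjusted p under 0.05. Grey cells were not tested (n.t.) or have no fold because the HFHF-old rat was at 0 (Ctgf in mural cells, right). The pairs with an unadjusted p under 0.05, 14 on the left and 9 on the right, include none with an adjusted p under 0.05. Of these, Ctgf in mural cells on the right is grey and not bold. The mural column on the right rests on 1 HFHF-old rat.

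The third question was the effect of the diet at 20 months. Between HFHF-old and old rats edgeR again called 0 of the 51 pairs, where it called 0.0143% of all genes in fibroblasts, 0.0188% in mural cells, 0.0082% in T/NK cells and 0% in endothelial cells, macrophages and epithelial cells. At an unadjusted p under 0.05, 9 pairs stood out (6 higher, 3 lower in HFHF-old rats), against 7.91% of all gene and class pairs. Of the 9, 3 were in mural cells, where the HFHF-old group was 1 rat of 19 cells, assumed in the fit to vary like the other groups. Without mural cells 6 of 42 pairs stood out (5 higher, 1 lower), against 8.5% of all pairs. DESeq2 called 1 of the 51, against 0.904% of all pairs. The median log2 fold change of the members was 0.16 over the 6 classes and 0.22 in fibroblasts, where that of all genes was 0.02.

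In fibroblasts 6 of the 9 genes did not overlap between HFHF-old and old rats, against 37.5% of all genes. Tgfbr2 measured 187 and 136 CPM in old and 268 and 272 in HFHF-old rats, the highest level of the receptor in these cells (0.72 ± 0.28 on the log2 scale, unadjusted p = 0.0359, adjusted p = 0.743). Ltbp1 measured 756 and 870 CPM in old and 1148 and 1313 in HFHF-old rats (0.56 ± 0.39, adjusted p = 0.842). Tgfb2 measured 136 and 121 against 144 and 164 CPM (0.23 ± 0.25, adjusted p = 0.889). The ligand-binding receptor, the latency protein and this ligand were thus higher in each HFHF-old rat than in each old rat, none past the test. Tgfb1 was lower, at 37.0 and 34.2 CPM in HFHF-old rats against 48.8 and 51.9 (-0.52 ± 0.22, adjusted p = 0.786), as were Tgfbr1, at 19.4 and 17.6 against 25.9 and 21.8 (-0.38 ± 0.24, adjusted p = 0.830), and Tgfb3, at 52.3 and 52.8 against 68.3 and 53.2 (-0.23 ± 0.22, adjusted p = 0.876). Tgfbi differed between the 2 HFHF-old rats themselves, at 56.7 and 7.3 CPM, alongside C1qa at 397 and 3.8 CPM and summed macrophage markers at 1758 and 32.3 CPM. The part of macrophage RNA in the Tgfbi difference was not tested. Without the first HFHF-old rat, which leaves 1 rat in the group, the Tgfbi log2 fold change was -2.74. Postn also differed within the group, at 363 and 92.8 CPM, with Col3a1 at 6928 and 1107 CPM.

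In the mural class the diet comparison rested on 19 cells of 1 HFHF-old rat. Ctgf had 0 of 94309 UMIs there, which allows a level of up to 31.8 CPM against a mean of 634 CPM in the 2 old rats, that is at least 19.9-fold lower in that 1 rat (counting error only). The first old rat, at 1003 CPM from 26 cells, carried that mean, and against the second old rat alone, at 265 CPM, the level was at least 8.32-fold lower. Tgfb2 measured 74.2 CPM there, against 360 and 175 in the old rats, and Tgfbi 106 CPM against 35.3 and 18.8, differences that have no replicate check. In macrophages, where the second HFHF-old rat gave 13 cells, Tgfb2 measured 8.9 and 2.5 CPM in old and 41.4 and 13.7 in HFHF-old rats (2.56 ± 0.68, adjusted p = 0.252), and Ltbp1 6.5 and 3.2 against 19.3 and 0 CPM (1.71 ± 0.64, adjusted p = 0.427). The first HFHF-old rat carried both of these fold changes, and the 13.7 CPM of Tgfb2 in the second was 1 UMI.

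Tgfb2 in T/NK cells was the 1 pair that DESeq2 called, at 20.0 and 15.9 CPM in old and 42.7 and 31.0 in HFHF-old rats (edgeR 0.89 ± 0.20, unadjusted p = 0.00310, adjusted p = 0.262). The T cell cluster, where Tgfb2 had a mean of 3.10 CPM against 32.7 in natural killer cells, was 39.9% of the class in each of the old rats and 8.19% and 14.2% in the HFHF-old rats. Within natural killer cells alone Tgfb2 measured 32.7 and 25.2 CPM in old and 46.4 and 35.1 in HFHF-old rats, a narrower gap in which the groups still did not overlap. Neither this difference nor the part of the cell mix in the class difference was tested. The 2 HFHF-old rats also differed in the cells behind these values: 6944 of the 9524 T/NK cells of the second were in a cluster of natural killer cells led by Slc27a2 and Klri2, which held 1 of the 940 cells of the first. Tgfbr2 in epithelial cells measured 11.0 and 5.7 CPM in old and 17.9 and 43.1 in HFHF-old rats (1.80 ± 0.54, adjusted p = 0.714), and Ptprc, a gene of all white blood cells, measured 91.9 and 59.0 against 120 and 914 CPM in the same sums. The sum of 11 T cell markers was 85.5 and 61.1 CPM in old and 59.5 and 570 CPM in HFHF-old rats. The cell mix differed as well: acinar cells were 1156 of 1623 and 628 of 3393 epithelial cells in the old rats, and 2338 of 2769 and 77 of 93 in the HFHF-old rats. Tgfbr2 in acinar cells alone measured 19.8 and 14.5 CPM in old and 24.0 and 53.2 in HFHF-old rats, and in endocrine cells 4.34 and 4.25 in old rats and 6.60 in the first HFHF-old rat. The parts of immune RNA and of the cell mix in the difference were not tested. Endothelial cells gave no member with an unadjusted p under 0.05, with Tgfbr2 at 306 and 458 CPM in HFHF-old rats against 408 and 368 in old rats.

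Within fibroblasts the levels were also read in the 4 clusters, as a description. Cluster 5 was led by Gfpt2, Has1 and Tnfrsf11b, clusters 7 and 13 by Pi16 and Clec3b, and cluster 10 by Inmt, Smoc2 and Rspo3. Mean Ltbp1 was 1422 CPM in cluster 5, 1141 in cluster 7, 500.5 in cluster 10 and 547 in cluster 13, and mean Tgfb2 was 232, 177, 104 and 85.4 CPM in the same order. Tgfb1 ran the other way, with 8.9, 24.6, 56.8 and 122 CPM, and so did C1qa, with 40.7, 55.2, 375 and 774 CPM, and Ptprc, with 13.2, 140, 159 and 746 CPM, whose part in the Tgfb1 levels was not tested. The clusters were unequally filled: cluster 5 held 1866 of 4529 and 52 of 336 fibroblasts in the young rats, 235 of 1547 and 102 of 2001 in the old rats, and 1613 of 3060 and 323 of 1124 in the HFHF-old rats.

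The group values therefore were set against those inside cluster 5. Tgfb2 there measured 319 and 288 CPM in young, 223 and 183 in old, and 188 and 189 in HFHF-old rats, so that the lower old values were also seen within the cluster, and the higher HFHF-old values were not. Tgfbr2 measured 166 and 123, 240 and 284, and 326 and 314 CPM in the same groups. The HFHF-old rats were again the highest, and young and old rats, which overlapped in all fibroblasts, did not overlap in the cluster. Ltbp1 measured 1531 and 970.1, 1228 and 1751, and 1447 and 1608 CPM, so that old and HFHF-old rats overlapped within the cluster, unlike in all fibroblasts. Postn measured 952 and 713, 180 and 75.4, and 303 and 75.6 CPM, again lower in all 4 older rats. Tgfb1 lay between 1.7 and 12.8 CPM in all 6 rats in cluster 5, with the groups overlapping, in contrast to the sums of all fibroblasts.

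Among the 4 macrophage clusters Tgfb1 was near level, with means of 272 to 285 CPM, while the receptors and Tgfbi were not. Mean Tgfbi was 604 CPM in cluster 1 (led by Fcna and Ccl24) and 706 in cluster 18 (with Gpnmb among its leading genes), against 282 in cluster 4 and 255 in cluster 14 (led by Olr1). Tgfbr1 stood the other way round, with 43.7, 24.1, 88.5 and 96.5 CPM in the same order. Cluster 18 held 1686 of the 3845 macrophages of the first HFHF-old rat and 10 of 2252 in the second old rat. The Tgfb2 of macrophages in the first HFHF-old rat sat in clusters 14 and 4, at 105 and 51.9 CPM, against 0.7 to 16.6 CPM for cluster 14 in the young and old rats.

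**Figure D5:**
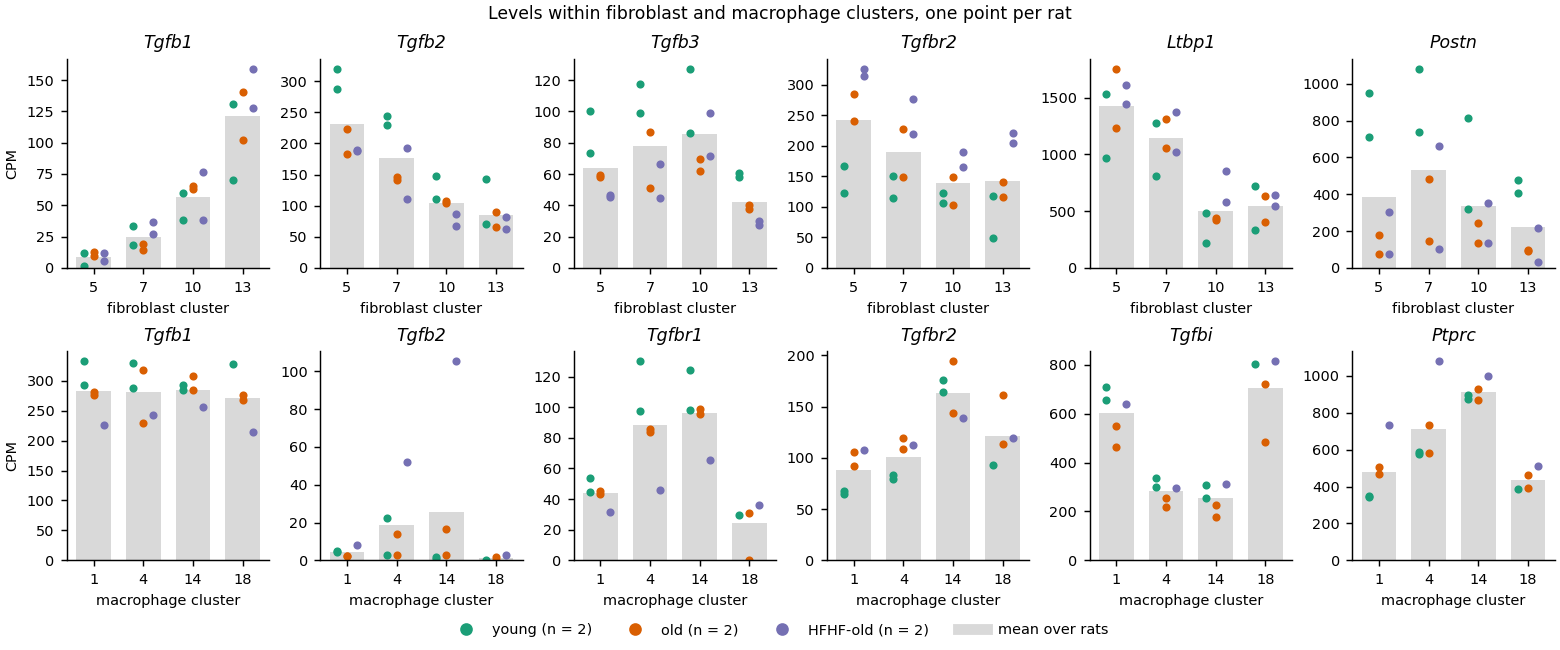
Levels in CPM within the 4 fibroblast clusters (top row) and 4 macrophage clusters (bottom row), with 1 point per rat coloured by group and a bar from 0 to the mean over rats (clusters with fewer than 10 cells in a rat left out). In the top row Tgfb1 climbs from cluster 5 to cluster 13 while Tgfb2 declines, and in the bottom row Tgfbi is highest in clusters 1 and 18, where Tgfbr1 is lowest.

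The other genes of the pathway were read from a list of 60, grouped by role: 16 of latency and activation, 7 receptors and co-receptors, 17 SMADs and their regulators, and 20 further targets. Of 319 gene and class pairs tested, edgeR called 0 in either comparison. At an unadjusted p under 0.05, 32 pairs stood out with age (14 higher, 18 lower), against 5.84% of all pairs, and 43 with diet (35 higher, 8 lower), against 7.91%. DESeq2 called 4 with age and 2 with diet, against its 0.624% and 0.904% of all pairs. In fibroblasts all 17 SMADs and regulators were tested and none reached an unadjusted p of 0.05 with age, their log2 fold changes running from -0.46 to 0.60 around a median of -0.04. The 16 latency genes ran from -1.32 to 1.57 with 1 higher and 3 lower at that level, and the 19 further targets tested from -1.62 to 1.49 with 2 higher and 2 lower, where 6.81% of all fibroblast genes reached that level. With diet, 6 of 16 further targets tested in macrophages were higher at an unadjusted p under 0.05, against 9.28% of all macrophage genes, around a median of 1.01, where that of all genes was -0.02. The second HFHF-old rat gave 13 macrophages with 73175 UMIs, so these values had little replication within the group. Clusters 14 and 18 held 1562 and 1686 of the 3845 macrophages of the first HFHF-old rat. They held 341 and 144 of 1145 in the first old rat and 93 and 10 of 2252 in the second. The part of the cell mix in these values was not tested. The 4 pairs that DESeq2 called with age were Thbs1 (an activator of latent TGF-beta), at 1.60, Junb, at 1.23, Mmp14, at -0.93, and Lox (a collagen crosslinking enzyme), at -1.60, all in fibroblasts. The 2 with diet were Skil (a SMAD repressor) in fibroblasts, at 1.32, and Bhlhe40 in T/NK cells, at 1.26. These 6 names were taken after their values had been seen.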

How the data were processed

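The deposited values were raw UMI counts per gene and barcode, 1 matrix per rat, which the authors had made with Cell Ranger (version 5.0.0 per the file headers, while the paper's methods name a later one) on the Rnor_6.0 build named in the submitters' processing notes. Barcodes with fewer than 200 genes (848), over 25% mitochondrial UMIs (1578) or in the top 1% of gene number (over 6331 genes, 781) were removed. The others were clustered with scanpy 1.11.5 (2000 variable genes, 10 principal components, 15 neighbours, Leiden resolution 1, 27 clusters) and named from marker lists, with 69 pathway genes held out. The 8113 barcodes most like simulated doublets were kept, and left out in an alternative. Clusters were rebuilt here, so they need not match the study's. UMIs were summed per class and rat (at least 10 cells) and tested with edgeR 4.0.16 (R 4.3.3, TMM, filterByExpr, quasi-likelihood test, all 6 rats in 1 fit per class, Benjamini-Hochberg over all genes of the class). A call needed an adjusted p under 0.05 and a change of at least 1.5 fold, and DESeq2 1.42.0 was an alternative. SEs were derived from the size of each log2 change and its F statistic. The sums held 73175 to 88870250 UMIs. Intervals and floors, set at 3 counts, cover counting error only. The scripts were tested on simulated counts.

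The 9 members, the lists and the alternatives were chosen with earlier results of these data known. Named genes were the 9 members, pathway genes called by a test, the 3 genes most like each member among those with a mean over 5 CPM, and the references Col3a1, Dcn, Prss1, Ins1 and C1qa, of which Prss1 is not reported. Ptprc, Acta2, Marco and the leading genes of clusters were named after their values had been seen. Groups came from the submitters' labels, where each sample is 1 rat. The alternatives were another scaling, DESeq2, other filters, clustering at resolution 2, a replicate block, fewer groups in the fit, and each rat left out. An interaction of class and group was added after the data had been seen. Protein sequences were not used here.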

Additional observations from a re-analysis of the deposited data

Results flagged for a closer look

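Postn and Tgfb2 were called as different between mural cells and fibroblasts in their change with age, in an interaction test added after their values had been seen. For Postn the log2 change of old against young rats was 3.72 higher in mural cells than in fibroblasts (2.50 and -1.93 in the separate fits), with 311 and 13.5 CPM in old and 29.2 and 14.5 in young mural cells. The first old rat, with 26 mural cells, carried the mural value, and the Postn call was lost without that rat (2.15, adjusted p = 0.0713), with DESeq2 size factors or with doublets left out (adjusted p = 0.110 each) and with library size alone (adjusted p = 0.0651). The Tgfb2 difference was 3.29 (2.57 in mural cells, -0.83 in fibroblasts), and both old rats were above both young rats in mural cells and below them in fibroblasts.

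A cluster that belongs to no class of the report held Postn at 2014 CPM (3120 of 1549534 UMIs), a signal outside the classes compared. Its 1835 cells all came from the second old rat, had a median of 706 UMIs and were led by unnamed genes, with Rplp0l1 among them. The closest marker list was that of red blood cells (3 of 3 markers up, mean log2 fold 2.79). Too few of these markers were detected in enough of its cells for a name. Col3a1 measured 6186 CPM, Acta2, a smooth muscle actin, 1937 CPM, Tgfb2 200.1 CPM, Ctgf 86.5 CPM and Ptprc 49.7 CPM in it. It gave no comparison between groups. The second old rat held 13 Postn UMIs in its mural sum and 878 in its fibroblast sum, and both sums leave this cluster out. Its effect on the group values was not tested.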

How the results depend on the processing

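The counts of members called rose from 0 under several settings. For old against young, 1 of 51 pairs was called by DESeq2 (0.624% of all pairs under the same setting), 5 without the low-count filter (1.24%), 1 with at least 30 cells (0.124%), 1 with the replicate block (Tgfb2 in mural cells, 0.0977%) and 0 to 2 when each rat was left out in turn (0.0747% to 0.299%). For HFHF-old against old, 1 was called by DESeq2 (0.904%), 2 without the filter (1.43%), 2 with only the compared groups in the fit (0.305%), 0 with the replicate block (0.0271%) and 0 to 2 with a rat left out (0.00781% to 0.472%). The pathway list gave 4 calls by DESeq2, 16 without the filter, 1 with at least 30 cells and 0 to 2 with a rat left out for age, and 2, 13, 3 (only the compared groups) and 0 to 6 for diet, beside the same shares of all pairs. Replicate numbers did not pair the samples over the classes (correlations of deviations from -0.16 to 0.26), although in T/NK cells all 3 pairs of groups were over 0.1 (0.11 to 0.26), where the block gave 0 member calls and 5 and 0 calls of all genes with age and diet against 6 and 1 without it. The members with 1 highest class, 6 as reported, were 4 without the rat block (Tgfb3 and Tgfbr2 lost), 5 at resolution 2 and 5 without the filter on the top 1% of gene number (Postn lost in both), and 5 to 6 with a rat left out (Tgfb3 lost without either young rat).

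Postn in mural cells (2.50, old against young) reversed to -0.45 with at least 30 cells and -0.46 without the first old rat. Ltbp1 in macrophages (1.71, HFHF-old against old) reversed to -8.48 without the first HFHF-old rat, which leaves 13 cells at 0, and ran up to 2.22 with other rats left out. Leaving out a rat made a call of Tgfb2 in macrophages (without the first or the second young rat, 2.56 and 2.54), of Postn in macrophages (without the second young rat, -3.31), and of Postn and Tgfb2 in mural cells (without the second old rat, 3.60 and 2.85). The Postn interaction lost its call with DESeq2 size factors (3.87, adjusted p = 0.110), library size alone (3.80, adjusted p = 0.0651) and doublets left out (4.24, adjusted p = 0.110). The cause was not tested. Where a group was left with 1 rat, that rat was assumed to vary like the others. Over the alternatives of 23 named fold changes, 368 values kept their direction and side of the threshold, 20 gained a call and 3 reversed. Library size alone moved the median of all genes by -0.38 in epithelial and -0.11 in T/NK cells with age, and by 0.25 in mural, 0.14 in macrophage and 0.14 in T/NK cells with diet. Acinar, endocrine and ductal cells apart gave 0 member calls each, where 0 genes of any kind were called except 2 of 11085 in ductal cells with diet. Over the settings the calls of all genes ran from 0 to 555 in fibroblasts with age and from 0 to 541 with diet. Depth limited the mural class (94309 UMIs in the HFHF-old rat) and the macrophages of the second HFHF-old rat (73175 UMIs).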

Other observations

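Outside the 6 classes, dendritic cells (6 rats) held Tgfb1 at a mean of 329 CPM, Tgfbi at 198 CPM and Tgfbr1 at 41.0 CPM, with Tgfb2 at 1.17 CPM. Another cluster that received no name, with Ptprc at 867 to 1921 CPM, held Tgfbr1 at 41.8 to 155 CPM over 6 rats. The macrophage class held 46.2 to 123 CPM, so its place as the highest for Tgfbr1 covers the 6 classes alone. A cluster of 565 cells named as group 2 innate lymphoid cells (5 rats) held Tgfb1 at 255 CPM, Tgfbi at 236 CPM and Tgfbr2 at 101 CPM. A larger cluster of 4183 cells that received no name, led by Il1rl1, with Gata3 and Il7r among its leading genes as in the former, held Tgfbi at 4.24 to 15.6 CPM, Tgfb1 at 169 to 209 CPM and Tgfbr2 at 71.3 to 109 CPM over 6 rats, so the Tgfbi level of the small cluster was not shared by most cells with these leading genes. Mesothelial cells (4 rats), which line the organ surface, held Tgfbr2 at 252 CPM, Tgfb2 at 56.5 CPM and Tgfb3 at 55.1 CPM.

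Within the epithelial class, ductal cells (5 rats) had means of 84.5 CPM for Ltbp1, 35.3 CPM for Ctgf (1.03 to 96.9 over the rats, and 19.9 without the first old rat) and 29.9 CPM for Tgfbr1, against 13.9 (8.41 without the first young rat), 1.72 (0.962 without the second young rat) and 13.7 CPM in endocrine cells (5 rats) and 13.8, 1.61 and 15.5 CPM in acinar cells (6 rats). Acinar cells had 66.1 CPM of Tgfb1 and 61.3 CPM of Tgfbi, against 21.9 and 32.8 CPM in endocrine cells. Without the second young rat, whose endocrine sum held C1qa at 606 CPM, the endocrine means were 11.1 and 21.0 CPM. The acinar values differed between its 2 clusters: cluster 3, with a median of 930.5 UMIs, held Tgfb1 at 181 CPM and Tgfbi at 165 CPM, with Ptprc at 940 CPM and C1qa at 1650 CPM, while cluster 9 held 17.3, 18.9, 74.2 and 197 CPM of the same genes. The part of immune RNA in the acinar levels was not tested.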
